A study of Macaca fascicularis with 20 samples.

Results

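The granzyme genes GZMA, GZMB, GZMH and GZMK were followed over 4 subsets of splenic natural killer (NK) cells and over B cells of the cynomolgus macaque (Macaca fascicularis). The members were chosen by symbol, through a match of the transcript accession of each array probe to the RefSeq genes of the species. This gave 4 granzyme genes of 12530 genes with a matched probe, each with 1 probe. The rule goes by gene name and uses no level or difference. On a custom 1-colour Agilent array of 20 samples, the study asked how NK cells that differ in surface CD27, a costimulatory receptor, and CD11b, an integrin chain, differ in gene expression. Spleen cells had been frozen and thawed, and NK cells were taken as live CD45+ cells that lacked CD3, CD14, CD20 and HLA-DR and carried NKG2A and CD8a. The groups were double positives (CD27+ CD11b+, 5 arrays), CD11b single positives (CD27lo CD11b+, 5 arrays), double-low cells (CD27lo CD11blo, 4 arrays), CD27 single positives (CD27+ CD11blo, 4 arrays) and B cells (HLA-DR+ CD20+ cells without NKG2A and CD8a, 2 arrays). No sample was stimulated.

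The animals came from Cambodia, Vietnam and Singapore and were 4 to 18 years old where an age is given. Samples from Cambodia and Vietnam were from males, and those from Singapore from both sexes. The labels call the samples of a subset biological replicates, but do not say which samples share an animal. For replicate 3 they state ages of 9, 10, 11 and 12 years in the 4 NK subsets. For replicate 4 they state a female of 18 years in both CD11blo subsets and a male of 5 years in both CD11b+ subsets. The subsets of number 4 thus came from more than 1 animal. Each array held 50 ng of sorted-cell RNA after isothermal amplification.

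Granzymes are serine proteases that NK cells and cytotoxic T cells store in lytic granules. Perforin lets them enter a target cell, where they cleave proteins that lead to its death. Granzyme A and granzyme K cut after basic residues, granzyme B cuts after aspartate and acts on caspases and BID, and granzyme H has chymotrypsin-like activity. In human blood GZMK is typical of the CD56bright NK cells, and GZMB and GZMH of the CD56dim cells. The RefSeq table of the species lists GZMA and GZMK on 1 chromosome with 1 non-coding gene between them, and GZMB and GZMH as direct neighbours on another. No probe sequence was used, so cross-hybridisation between these relatives was not tested.

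All 4 probes were well above background on all 20 arrays, and none was saturated or marked as an outlier on any of them. Levels are on a log2 scale, as the processed signal relative to the 75th percentile of its array, so that a level above 0 lies among the brightest probes of its array. Levels of different probes are not set against each other. The 75th percentile lay between 180.0 and 1897.4 units of intensity. The dimmest array was double-positive replicate 4, with 180.0 units, and the next double-low replicate 4, with 199.6 units, and all others reached at least 578.2 units. CD11b and NKG2A had no matched probe. CD27 did, and on 2 arrays its level went against the label: the library labelled double-low replicate 4 stood at 4.88 and that labelled CD11b single-positive replicate 4 at 3.83. The other CD27lo arrays lay between 2.31 and 3.20, and the CD27+ arrays between 3.66 and 4.87. Several of the differences that rest on these arrays are also given without them.

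GZMH showed the clearest order among the subsets. Its level was 3.60, 4.40, 5.01, 6.49 and 5.01 in double positives, replicates 1 to 5. In CD11b single positives it was 1.47, 4.12, 5.43, 5.15 and 4.99, in double-low cells 0.04, 0.70, 3.33 and -0.02, and in CD27 single positives 2.37, 2.0, 4.04 and 3.38. Every double-positive array stood above every double-low array, although double-low replicate 3 came close to double-positive replicate 1. The CD11b single positives held 4 high arrays and 1 low one, replicate 1, which fell among the CD11blo arrays. From high to low the subset means were 4.90 ± 1.06 in double positives (SD, n = 5), 4.23 ± 1.62 in CD11b single positives (n = 5), 2.95 ± 0.93 in CD27 single positives (n = 4) and 1.01 ± 1.58 in double-low cells (n = 4). In bulk RNA of a sort, fewer cells that express a gene and less of its RNA per cell cannot be told apart.

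The 2 CD11b+ subsets together exceeded the 2 CD11blo subsets in GZMH by a log2 of 2.59 ± 0.57 (limma standard error), or 6.01-fold. Of the 10 CD11b+ arrays, 9 lay above the CD11blo mean and 8 above the highest CD11blo array. It ranked 11 of 12192 genes by limma's test, yet its adjusted p of 0.293 was over the threshold of 0.05. In this comparison 0.0164% of genes passed the test and 614 had an unadjusted p under 0.05. None of the 4 granzymes passed, and GZMH was the 1 of them with such an unadjusted p. Without double-positive replicate 4 the difference was 2.39 and without double-low replicate 4 it was 2.42. Without CD11b single-positive replicate 4, whose CD27 level went against its label, it was 2.47.

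Double positives exceeded double-low cells in GZMH by a log2 of 3.89 ± 0.81, or 14.8-fold (limma adjusted p = 0.128). GZMH was the 1 granzyme of 4 whose arrays did not overlap between these groups, with a gap of 0.28, and 6.99% of all genes had this property. No gene passed the test here (0% of 12192), while 2562 had an unadjusted p under 0.05. Without double-low replicate 4 the GZMH difference was 3.55 (adjusted p = 0.279) and without double-positive replicate 4 it was 3.49 (0.135). CD11b single positives exceeded double-low cells in GZMH by 3.22 ± 0.81 (9.32-fold), with 4 of 5 arrays above the highest double-low array. It ranked 8 of all genes, with an adjusted p of 0.945. It was 2.88 without double-low replicate 4 and 2.99 without CD11b single-positive replicate 4. Double positives stood 1.95 ± 0.81 above CD27 single positives (adjusted p = 1.0), and double-low cells 1.93 ± 0.86 below them, a log2 difference of -1.93 (adjusted p = 0.374). The latter was -1.59 without double-low replicate 4. The 2 CD11b+ subsets, which are neighbours in the order, differed by 0.67 ± 0.77, less than their spread.

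GZMK had another order, in which CD27 single positives were highest. Its level was 4.51, 4.08, 3.92, 1.63 and 3.29 in double positives and 3.12, 1.45, 3.92, 3.39 and 2.45 in CD11b single positives. In double-low cells it was 3.33, 1.79, 3.91 and 0.83, and in CD27 single positives 4.88, 3.55, 4.64 and 3.48. All 4 CD27 single-positive arrays were high, whereas each other subset held at least 1 array under 2 on this scale, and all subsets overlapped. From high to low, the mean was 4.14 ± 0.73 for CD27 single positives (SD, n = 4), 3.49 ± 1.13 for double positives (n = 5), 2.87 ± 0.95 for CD11b single positives (n = 5) and 2.47 ± 1.41 for double-low cells (n = 4). Neighbours in this order differed by less than 1 SD of either group.

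CD27+ subsets exceeded CD27lo subsets in GZMK by a log2 of 1.14 ± 0.47, or 2.21-fold (limma adjusted p = 0.210). Of the 9 CD27+ arrays, 8 lay above the CD27lo mean. No gene passed in this comparison (0% of 12192), and 2711 genes had an unadjusted p under 0.05. The median of all genes was -0.37 here, so GZMK stood 1.51 above it. Without double-low replicate 4 the GZMK difference was 0.87 (adjusted p = 0.288), and without CD11b single-positive replicate 4 it was 1.21 (0.114). Double-low cells differed from CD27 single positives by -1.67 ± 0.70 (adjusted p = 0.374), with 3 of 4 arrays below the lowest CD27 single positive. CD11b single positives differed from CD27 single positives by -1.27 ± 0.67 (adjusted p = 0.812), with 4 of 5 arrays below it. Without CD11b single-positive replicate 4 this last difference was -1.40. By CD11b, GZMK differed by -0.13 ± 0.47, while GZMH differed by 2.59. GZMH was also higher in CD27+ than in CD27lo subsets, by 1.30 ± 0.57 (limma adjusted p = 0.216). A higher level in CD27+ subsets was thus not particular to GZMK.

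GZMK was also the member whose level moved with the brightness of the array. Over the 18 NK arrays its r with the log2 of the 75th percentile was 0.76, and 0.576 without the 2 dimmest arrays. On these 2 it stood at 1.63 (double-positive replicate 4) and 0.83 (double-low replicate 4). For GZMH this r was 0.0974, for GZMA 0.386 and for GZMB -0.382. Without the 2 dimmest arrays the CD27+ minus CD27lo difference in GZMK was 1.1 (adjusted p = 0.173), and that of double-low cells against CD27 single positives was -1.13. The part of array brightness in the GZMK differences was not tested.

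GZMA had the widest spread of the 4 genes in double positives and CD27 single positives, but in CD11b single positives it spread less than GZMH and GZMK. Its level was 5.48, 2.80, 3.85, -2.99 and 4.41 in double positives and 5.22, 3.18, 4.09, 3.80 and 3.53 in CD11b single positives. In double-low cells it was 2.98, 0.27, 0.84 and 3.56, and in CD27 single positives 4.65, 0.13, 3.31 and 3.94. The low value of double-positive replicate 4, the dimmest array, lay far under every other NK array and at the level of B cells, although the same array held the highest GZMB and GZMH levels of the study. The means were 3.96 ± 0.78 in CD11b single positives (SD, n = 5), 3.01 ± 1.99 for CD27 single positives (n = 4), 2.71 ± 3.33 for double positives (n = 5) and 1.92 ± 1.60 in double-low cells (n = 4).

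No GZMA difference between NK subsets passed the test. That of CD11b single positives over double-low cells was 2.05 ± 1.30 on the log2 scale (adjusted p = 0.945), with 5 of 5 arrays above the double-low mean. It was 2.60 without double-low replicate 4. Double positives differed from CD27 single positives by -0.30 ± 1.30 (adjusted p = 1.0), and the sign turned under quantile normalization (0.0204), with normexp background correction (0.23) and in the submitters' matrix (0.0199). Without double-positive replicate 4 the same difference was 1.13. By CD11b the GZMA difference was 0.87 ± 0.92 (adjusted p = 0.946) with all arrays and 1.86 (adjusted p = 0.933) without the 2 dimmest.

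GZMB differed least between the subsets. Its level was 5.91, 5.80, 6.41, 6.87 and 6.01 in double positives and 5.79, 5.49, 6.66, 5.70 and 6.27 in CD11b single positives. In double-low cells it was 5.59, 4.01, 5.88 and 6.43, and in CD27 single positives 6.18, 5.11, 6.01 and 5.96. All 18 NK arrays lay between 4.01 and 6.87, with double-low replicate 2 lowest, and every pair of subsets overlapped. The means were 6.20 ± 0.44 in double positives (SD, n = 5), 5.98 ± 0.47 in CD11b single positives (n = 5), 5.82 ± 0.48 in CD27 single positives (n = 4) and 5.48 ± 1.04 in double-low cells (n = 4). The difference of double positives over double-low cells was 0.72 ± 0.42 (adjusted p = 0.296), and that of CD11b+ over CD11blo subsets was 0.44 ± 0.29 (adjusted p = 0.946). Without double-low replicate 2 these were 0.23 and 0.20, and the first was then below the 0.38 of double positives over CD27 single positives. Without double-low replicate 4 they were 1.04 and 0.60.

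**Figure D1:**
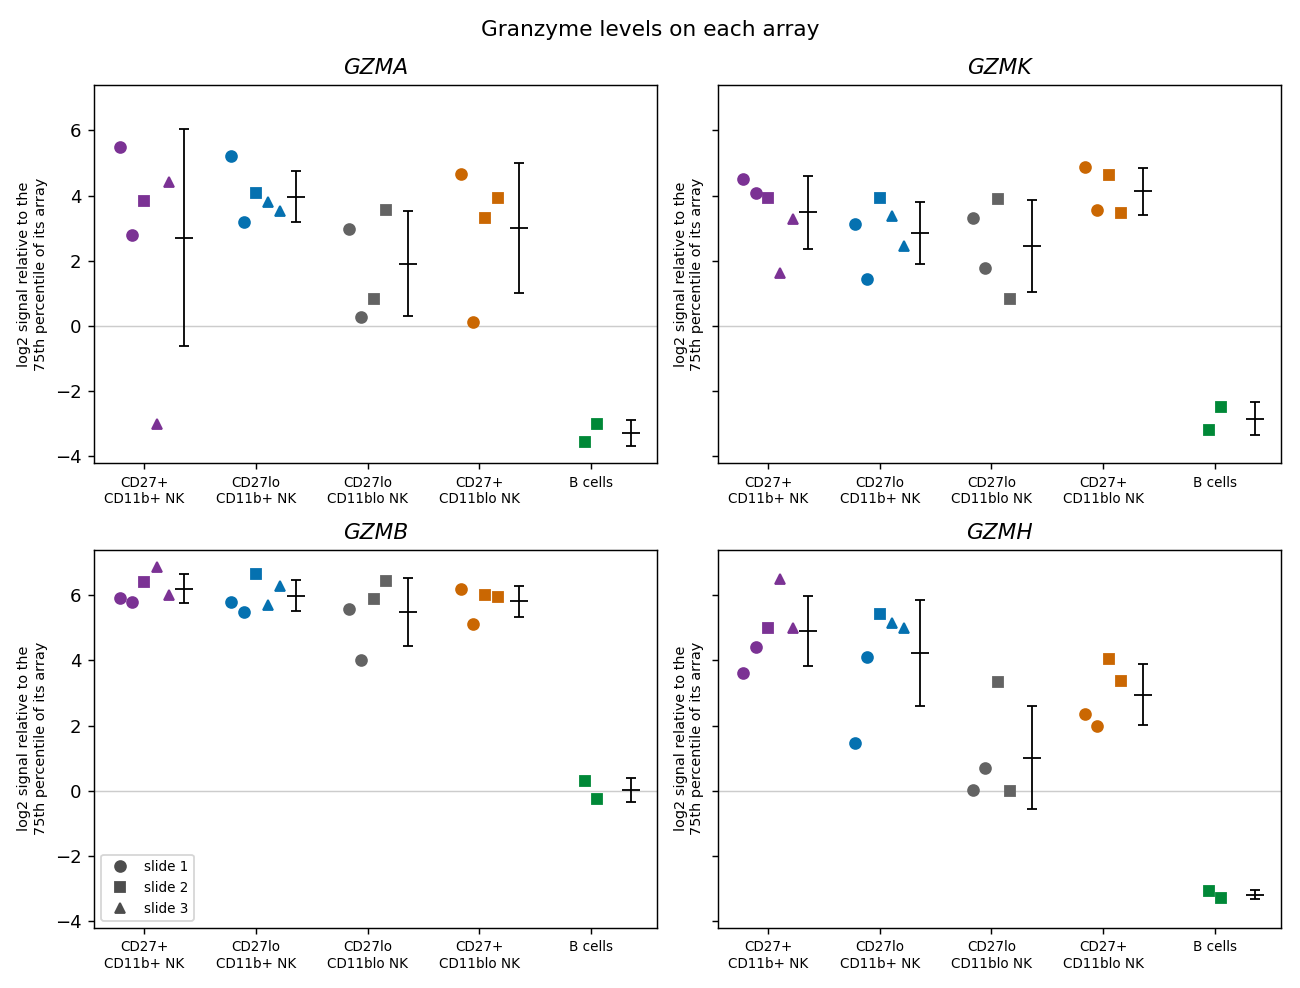
Level of each granzyme gene on each array, as log2 signal relative to the 75th percentile of the array, for the 4 NK subsets and B cells. Symbols mark the slide of the array, and the bar to the right of each group gives its mean and SD (n = 5, 5, 4, 4 and 2). GZMH is low in CD27lo CD11blo cells except in replicate 3 (3.33). GZMK is high in all 4 arrays of CD27+ CD11blo cells, and 1 double-positive array stands at -2.99 for GZMA.

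The moderated F test asked whether a gene differed among the 4 subsets at all. It gave an adjusted p of 0.559 for GZMH (rank 14 of 12192 by p), 0.572 for GZMK, 0.666 for GZMB and 0.704 for GZMA. For GZMH it was 0.732 without double-low replicate 4 and 0.278 without CD11b single-positive replicate 4. No gene passed it (0%), and 1068 had an unadjusted p under 0.05. The CD11b difference within CD27+ cells was also set against that within CD27lo cells. Between these, GZMA differed by -2.35 ± 1.83, GZMH by -1.27 ± 1.15, GZMK by -1.05 ± 0.94 and GZMB by -0.12 ± 0.59, each with an adjusted p of 1.0. No gene passed this test (0%), and 175 had an unadjusted p under 0.05. The CD11b difference in GZMH was thus not shown to depend on CD27.

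Limma called no gene in any of the 6 pairs of subsets (0% each), and between 295 and 2562 genes had an unadjusted p under 0.05. The arrays of 2 groups seldom fell apart fully for a granzyme. Double positives against double-low cells was the 1 comparison of NK subsets in which a member had no overlap, and that member was GZMH. Between CD11b single positives and CD27 single positives 0 of 4 members had none, where 2.13% of all genes did. The same held for double positives against CD27 single positives (0.616% of genes), double positives against CD11b single positives (0.304%), double-low cells against CD27 single positives (20.6%) and CD11b single positives against double-low cells (1.81%). By CD11b 0.00822% of genes had no overlap and by CD27 0.0329%, and no member was among them.

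**Figure D2:**
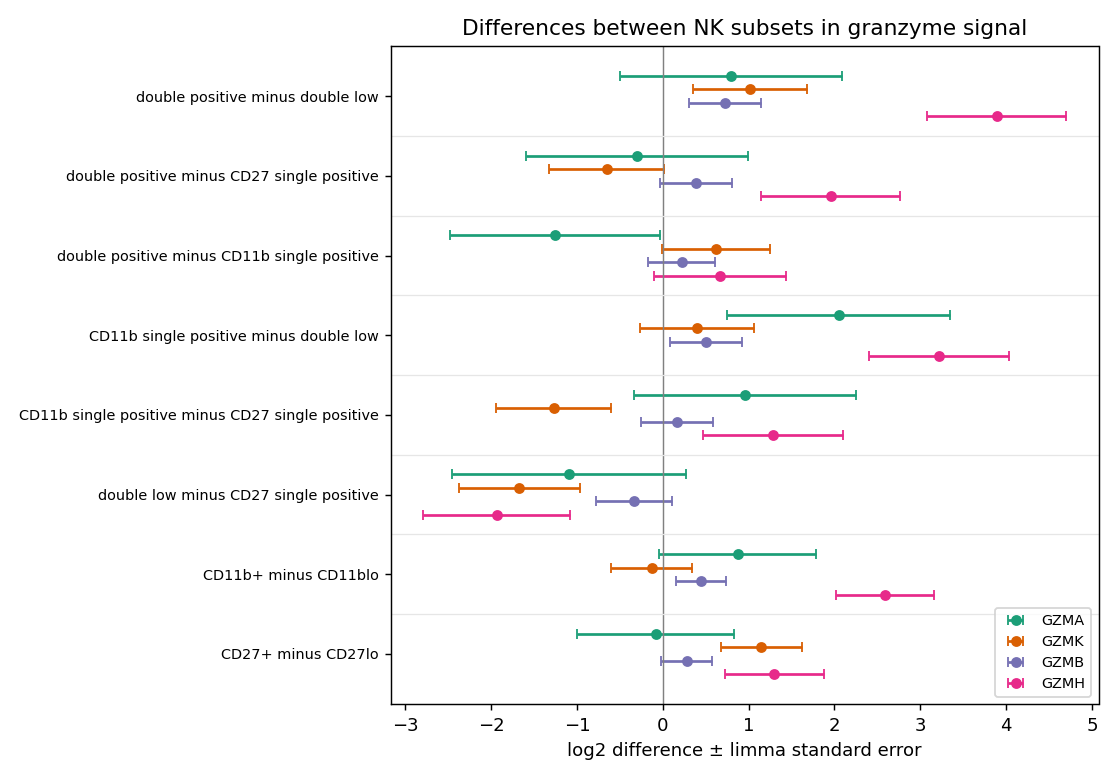
Log2 differences between NK subsets in the 4 granzyme genes, with limma standard errors, for the 6 pairs of subsets and for the 2 sort markers. GZMH lies furthest to the right of 0 in the double positive minus double low comparison (3.89), and GZMK lies left of 0 wherever CD27 single positives are subtracted.

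The arrays stood on 3 slides, of which the first and second held all 4 subsets. On the first, double positives exceeded double-low cells in GZMH by 3.63 and on the second by 3.35. For CD11b single positives over double-low cells the GZMH differences were 2.43 and 3.77. The CD11b difference in GZMH was 2.12 within the first slide and 2.53 within the second. These 3 GZMH differences were positive within both slides. Double positives minus CD11b single positives, by contrast, was 1.21 in GZMH on the first slide and -0.42 on the second. The second slide held 1 array of each of these 2 subsets. For GZMK, double-low cells differed from CD27 single positives by -1.65 and -1.69 on these slides, whereas CD11b single positives differed from them by -1.93 on the first and by -0.14 on the second. The third slide held only replicates 4 and 5 of double positives (GZMH 6.49 and 5.01) and of CD11b single positives (5.15 and 4.99). It held no CD11blo array, so CD11b is partly mixed with slide in the differences over all arrays.

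A donor label was inferred from origin and sex with the replicate number or, for the Singapore animals, with age in place of the number. For the Singapore female label this joins replicate 5 of both CD11b+ subsets with replicate 4 of both CD11blo subsets, which stood on another slide. With the number kept for all origins, 3 labels of origin, sex and number hold all subsets, and a count of 4 of 4 then becomes 3 of 3. It cannot be known from the labels whether a label marks 1 animal. For the Vietnam male label of number 3 the stated ages differ between the subsets, and this label is among those counted here. In the 4 donor labels that held all subsets, GZMH was lowest in double-low cells in 4 of 4, and the order double positives over CD27 single positives over double-low cells held in 4 of 4. Double positives had the highest GZMH in 3 of them. GZMK was higher in CD27 single positives than in CD11b single positives and in double-low cells in 4 of 4, by 0.72 to 2.10 and by 0.73 to 2.65. CD27 single positives were the highest of the subsets in GZMK in 3 of 4 and double positives in the other. GZMA was higher in double positives than in double-low cells in 4 of 4, by 0.85 to 3.01, and higher than in CD27 single positives in 4 of 4, by 0.47 to 2.67. Double-positive replicate 4 is not among these labels. GZMB was lowest in double-low cells in 3 of 4 and highest there in the Singapore female label, which holds double-low replicate 4.

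B cells gave the level of the 4 probes in cells outside the NK gate. Both B cell arrays came from Singapore females and stood on the second slide, whereas the NK arrays spanned all slides, all origins and both sexes. Cell type is thus partly mixed with these. The level in B cells was -3.56 and -3.01 for GZMA, 0.29 and -0.24 for GZMB, -3.08 and -3.29 for GZMH and -3.20 and -2.48 for GZMK on the 2 arrays. Every NK array stood above both, by at least 3.73 for GZMB, 3.31 for GZMK and 3.06 for GZMH. For GZMA the gap was 0.02, set by double-positive replicate 4. The share of all genes without overlap between NK and B cell arrays was not computed. This separation is therefore not read as particular to the granzymes. In the fit of the mean of the NK subsets over B cells, all 4 granzymes were among the 1.72% of genes called higher. The adjusted p ran from 2.11e-07 for GZMB to 0.0204 for GZMA, which no longer passed without B cell replicate 1 (0.350) or without B cell replicate 2 (0.283).

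The 4 members did not share 1 pattern over the NK arrays. The highest Pearson r was that of GZMB with GZMH (0.52, Spearman rho 0.467, 18 arrays), followed by GZMA with GZMK (0.401, rho 0.315). The r of GZMH with GZMK was 0.188, and the other 3 pairs lay between -0.0878 and 0.163. Without the 2 dimmest arrays GZMA with GZMB was 0.666, GZMB with GZMH 0.64, GZMB with GZMK 0.549, GZMA with GZMH 0.35, GZMA with GZMK 0.322 and GZMH with GZMK 0.158, so that the order of the pairs changed. The arrays share a subset, a slide and an array scale, and the values describe these libraries.

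**Figure D3:**
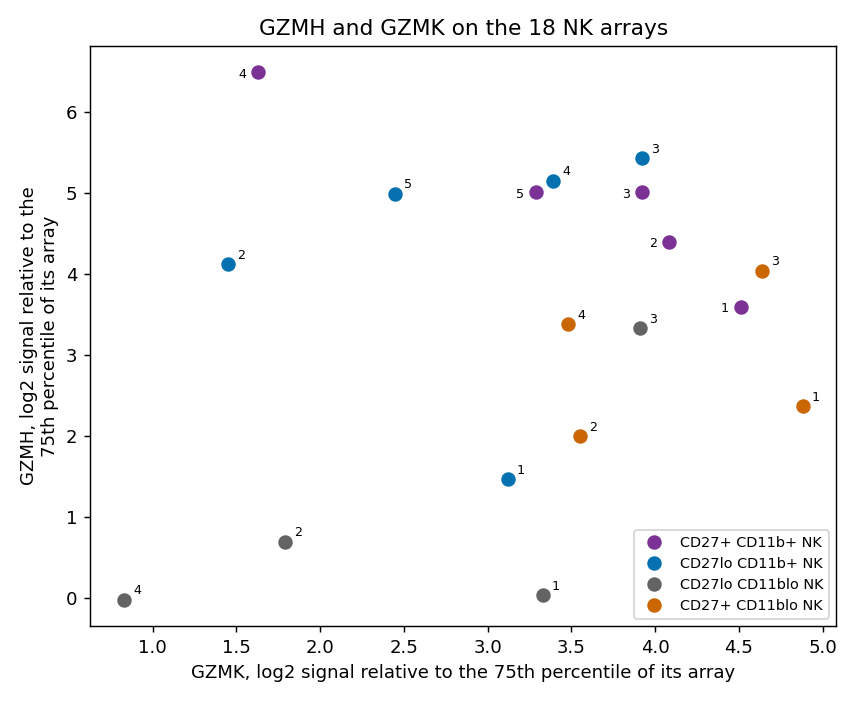
GZMH against GZMK on the 18 NK arrays, both as log2 signal relative to the 75th percentile of the array, with the replicate number beside each point. CD27+ CD11blo arrays range from 3.48 to 4.88 in GZMK, where they overlap the other subsets, with intermediate GZMH. The CD11b+ arrays lie high except CD27lo CD11b+ replicate 1, and 3 of the 4 double-low arrays lie at the bottom.

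The genes most like each granzyme over the NK arrays were named by Pearson r, over 12188 genes. For GZMH they were SLC50A1 (0.908), LOC101867429 (0.871), NOTCH1 (0.84), NKG7 (0.838) and CTDSP1 (0.838). NKG7 encodes a membrane protein of cytotoxic granules and NOTCH1 a receptor. For GZMB they were CST7 (0.812), which encodes cystatin F, an inhibitor of granule cathepsins, KRTCAP2 (0.806), COX6A1 (0.8), FXYD5 (0.792) and H3-3A (0.787). For GZMK they were RAB8B (0.834), a small GTPase gene, NAP1L5 (0.828), BCLAF1 (0.825), LYPLA1 (0.822) and COX7B (0.806). For GZMA they were CENPX (0.832), TUBB (0.816), a tubulin gene, SNAPIN (0.813), PRADC1 (0.81) and PHPT1 (0.804). No gene stood in more than 1 of these lists. The share of genes with r over 0.8 was 0.082% for GZMH, 0.0656% for GZMK, 0.041% for GZMA and 0.0246% for GZMB.

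Of the genes that act with granzymes, PRF1, which encodes perforin, had the GZMH order by CD11b and passed the test. Its level was 3.34, 2.97, 2.75, 3.86 and 3.89 in double positives and 2.51, 2.88, 4.03, 4.15 and 4.11 in CD11b single positives. In double-low cells it was 1.26, 0.44, 1.29 and 0.90, and in CD27 single positives 2.35, 2.39, 2.52 and 0.87. Every CD11b+ array was above every double-low array, and CD11b single-positive replicate 1 lay just under the highest CD27 single positive. PRF1 exceeded CD11blo levels by 1.95 ± 0.31 in the CD11b+ subsets (limma adjusted p = 0.0307). It was 1 of the 2 genes called, both higher. The other, PLEKHG3, was named after its values were seen and stood at 3.07 ± 0.41 (adjusted p = 0.00675). The PRF1 difference was positive in all 33 alternatives (1.32 to 2.38), but it passed in 13 of them. It did not pass with slide as a block (adjusted p = 0.361) or without the 2 dimmest arrays (0.0907). Leaving out 1 array ended the call for 11 of 18 arrays, with an adjusted p between 0.0603 and 0.121. These were double-low replicates 1 to 4 (0.0880 without replicate 4), CD27 single-positive replicates 1, 2 and 4, double-positive replicates 1 and 5, and CD11b single-positive replicates 3 and 4 (0.0844 without replicate 4). PLEKHG3 passed in 28 of the 33 alternatives.

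The other pore formers and granule carriers did not pass by CD11b. NKG7 differed by 1.23 ± 0.47 (adjusted p = 0.946), GNLY, which encodes the membrane-lytic granulysin, by 0.97 ± 0.48, and SRGN, the proteoglycan core of the granule, by -0.23 ± 0.31. Their list thus held 1 gene called higher of 4, with a median of 1.1 beside -0.13 over all genes. Of 5 genes of granzyme processing none passed, and none had an unadjusted p under 0.05. CST7 differed by 0.74 ± 0.45 and CTSC, the protease that activates granzymes by removing a dipeptide, by -1.08 ± 0.91. The list's median was 0.16.

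None of the 3 measured granzyme inhibitors passed, and 1, SERPINB1, had an unadjusted p under 0.05. SERPINB1, an inhibitor of neutrophil proteases and of granzyme H in human, differed by 1.31 ± 0.50 and SERPINB9, the inhibitor of granzyme B, by 1.05 ± 0.64 (adjusted p = 0.946 for both). SERPINC1, which encodes antithrombin, differed by -0.71 ± 0.64. Of 11 regulators of granzyme genes none passed, and 2, RUNX3 and TBX21, had an unadjusted p under 0.05. RUNX3, a transcription factor of cytotoxic lymphocytes, differed by 1.09 ± 0.33 (adjusted p = 0.917) and TBX21, which encodes T-bet, by 0.90 ± 0.39. RUNX1 differed by -1.05 ± 0.53. The regulators' median was 0.29.

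No gene passed among 8 genes of granule exocytosis (median -0.20), among 13 genes of granzyme substrates (median 0.09) or among 7 related serine proteases (median -0.10), and none of these had an unadjusted p under 0.05.

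Between NK and B cells, where 2.92% of 12388 genes passed, 0 of 7 related serine proteases were called and none had an unadjusted p under 0.05. There 3 of 4 pore formers and carriers were called higher, namely PRF1 (5.87 ± 0.56), NKG7 (5.44 ± 0.72) and GNLY (5.19 ± 0.65). Of the 5 processing genes, CTSW (5.04 ± 0.92), a cathepsin of cytotoxic cells, and CST7 (4.93 ± 0.69) were higher in NK cells and CTSH (-3.98 ± 0.54), a cathepsin, was lower. Of the 11 regulators, EOMES (7.32 ± 0.84), IL2RB (5.83 ± 0.65) and ID2 (4.58 ± 0.56) were higher, and BACH2 (-5.81 ± 0.77), a repressor known from B cells, was lower.

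**Figure D4:**
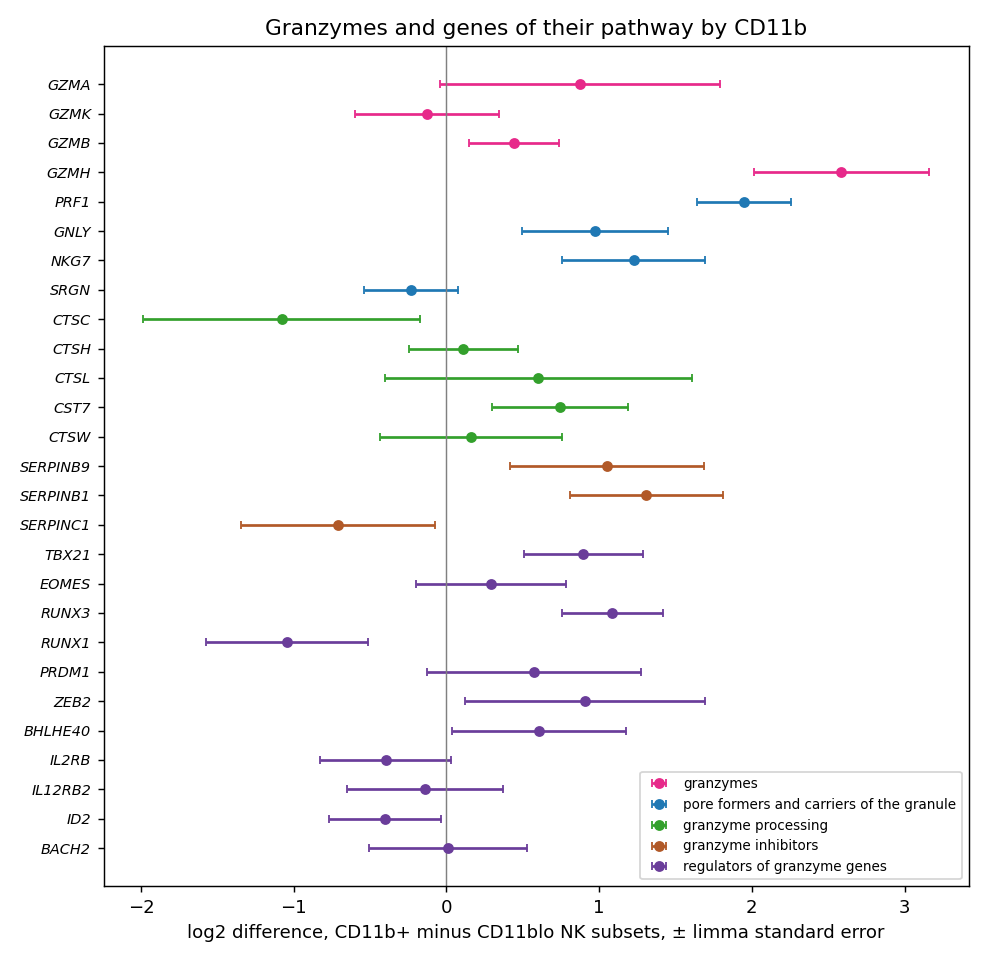
Log2 difference of CD11b+ minus CD11blo NK subsets, with limma standard errors, for the granzymes and for the measured genes of 4 lists that act with them. PRF1 (1.95) is the one gene shown that passed the test, while GZMH has a wider difference (2.59) with a wider error.

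Between double positives and double-low cells, where GZMH differed most, the list of pore formers and carriers had a median log2 difference of 1.67, beside -0.47 over all genes. PRF1 differed by 2.39 ± 0.44 (adjusted p = 0.128) and NKG7 by 2.28 ± 0.67 (adjusted p = 0.163), neither past the threshold. SERPINB1 differed by 2.19 ± 0.71 (adjusted p = 0.174) and RUNX3 by 1.76 ± 0.47 (adjusted p = 0.156). These 4 were named for their low p, and other genes of the lists had negative differences, among them SERPINC1 (-1.32 ± 0.90), RUNX1 (-1.06 ± 0.75) and BACH2 (-0.71 ± 0.73).

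Markers of other cell types were also compared between double positives and double-low cells, and none passed. Over all genes the median difference there was -0.47, 33.6% of genes had a positive difference and 21.0% an unadjusted p under 0.05. All 5 measured mast cell and basophil markers had negative differences, 3 of them with an unadjusted p under 0.05, with a median of -1.10. KIT, a growth factor receptor also known from immature NK cells, had the widest, -4.23 ± 1.40 (adjusted p = 0.179). The summed level of these 5 lay between -1.36 and 0.19 in double positives and between 0.61 and 1.91 in double-low cells, with no overlap. All 9 neutrophil markers, 4 of which are also among the related serine proteases, had negative differences (median -0.73), and their sums overlapped, at 1.5 to 2.64 in double positives and 2.43 to 3.07 in double-low cells. Of 11 NK cell markers 9 had positive differences, with a median of 0.84. The medians of the T cell, B cell, plasma cell and monocyte markers were -0.12, -0.60, -0.60 and -0.69, beside the -0.47 of all genes. The part of these markers in the GZMH difference was not tested.

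T cells, which also make granzymes, carry CD3 and lay outside the NK gate. Of 16 T cell markers 9 had a tested probe, and CD3E and CD3G were not among them. The summed level of the 9 lay between 3.69 and 4.49 in double positives, 3.28 and 4.81 in CD11b single positives, 2.71 and 5.20 in double-low cells, 3.83 and 4.98 in CD27 single positives and 1.38 and 1.54 in B cells. These ranges overlapped among the NK subsets. CD3D, the 1 gene measured of CD3D, CD3E and CD3G, lay between -1.19 and 2.76 over the NK arrays and at -1.12 and -2.37 in B cells. The r of the summed T cell markers with the granzymes over the 18 NK arrays lay between -0.123 and 0.197, and their part in the results was not tested. Between NK and B cells all 9 T cell markers had positive differences and 3 were called higher, where 1.72% of genes were. These were TRAT1 (7.18 ± 0.69), an adaptor of the T cell receptor, CD247 (6.0 ± 0.91), a signalling chain that NK cells also use, and CAMK4 (3.56 ± 0.65), a kinase gene. All 11 measured NK cell markers had positive differences and 6 were called, among them KLRD1 (6.67 ± 0.57), the partner of NKG2A. All 10 measured B cell markers had negative differences and 7 were called lower, where 1.2% of genes were.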

How the data were processed

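The probes of 20 arrays were analysed for the 4 granzyme genes. Per the submitters' processing notes, the tools were Agilent Feature Extraction 10.7.1.1 and Partek. The processed signal in the deposited scanner files is an intensity with background already subtracted, per the file headers, and the spot and background medians are raw intensity. In the matrix of the submitters the deposited values are log2, with the same median on every array and rank correlations of 1 with the scanner values. It served as an alternative only.

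Of 58839 spots that were not controls (58659 probes), outlier spots were dropped and spots of a probe averaged. Accessions without version matched 20417 probes (34.8%) to 12530 genes of the RefSeq table (T2T-MFA8v1.1, used for names and neighbours). Tested probes had to be well above background on 4 or more of 18 NK arrays, or 2 of 20 for B cells, and the brightest stood for its gene. The log2 signal minus the array's 75th percentile was fitted in R 4.3.3 with limma 3.58.1 (groups without a block, eBayes with trend and robust), and p was adjusted by Benjamini-Hochberg over all genes at 0.05. NK arrays shared 1 spread. The fit was run on simulated data, with known differences added to deviations shuffled between arrays. The shuffling breaks any likeness within a slide or number, so this run could not examine the lack of a block. The number of arrays limits the precision. Since the labels do not say which samples share an animal, p-values measure the spread between these samples, which may be partly technical.

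Members and gene lists were chosen with earlier results of these data known. Each member was named, then the 5 genes of highest r with each, and at most 4 genes per list, those of lowest p. The comparison of CD11b differences within CD27+ and CD27lo cells was added after the data were seen. Alternatives changed the normalization, background, filter, block, array weights, probes, moderation and arrays.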

Additional observations from a re-analysis of the deposited data

How the results depend on the processing

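GZMH kept its direction under all 33 alternatives in the CD11b comparison (1.93 to 2.97), for double positives over double-low cells (3.15 to 4.66) and for CD11b single positives over double-low cells (2.43 to 3.99). With array weights, 3 results came past the threshold: GZMH in double positives over double-low cells (3.47, adjusted p = 0.0163), GZMH in the F test (adjusted p = 0.0313) and GZMK in CD27+ over CD27lo subsets (1.22, adjusted p = 0.0409). Of 12192 genes, array weights called 3738, 1569 and 4114 in these comparisons, where the main fit called 0. Passing there was thus not particular to the granzymes. The cause was not tested for any value below.

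GZMA in double positives over CD27 single positives (main value -0.30) reversed to 0.0204 with quantile normalization, 0.23 with normexp, 0.0199 in the deposited matrix, 0.54 with slide, 0.90 with donor label and 0.43 with donor label and age as a block, 0.94 with array weights, 1.13 without the 2 dimmest arrays, 1.75 within the first slide and 0.22 within the second. GZMA by CD27 (-0.08) reversed to 0.0744 with normexp, 0.35 with array weights, 0.91 without the 2 dimmest arrays, 0.35 within the first slide and 0.59 within the second. GZMK by CD11b (-0.13) reversed to 0.22 with a slide block, 0.0389 with donor label and age, 0.12 with array weights and 0.70 within the second slide. Without the 2 dimmest arrays, GZMA in double positives over CD11b single positives was 0.17 and GZMK in CD11b single positives over double-low cells -0.15. Array weights gave -0.13 for GZMB in double positives over CD11b single positives. Within the first slide, GZMB in CD11b single positives over CD27 single positives was -0.0076, GZMK in double positives over CD27 single positives 0.0752, GZMK in CD11b single positives over double-low cells -0.28 and the GZMK comparison of CD11b differences 0.35. Within the second, double positives over CD11b single positives gave -0.25 for GZMB, -0.42 for GZMH and -0.0015 for GZMK, GZMB in double-low cells over CD27 single positives was 0.17 and GZMB by CD27 -0.21.

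Leaving out 1 array at a time, GZMA ranged from -1.26 to 1.13 in double positives over CD27 single positives, -1.95 to 0.17 over CD11b single positives, -0.43 to 0.63 by CD27 and -0.0029 to 1.5 in CD11b single positives over CD27 single positives. GZMB ranged from -0.0695 to 0.29 in CD11b single positives over CD27 single positives, -0.65 to 0.15 in double-low cells over CD27 single positives and -0.43 to 0.37 in the comparison of CD11b differences. GZMH ranged from -0.0215 to 0.99 in double positives over CD11b single positives, and GZMK from -0.40 to 0.11 by CD11b and from -0.15 to 0.88 in CD11b single positives over double-low cells. GZMA over B cells (5.91 to 6.54) lost its call without either B cell array, and with donor label and age as a block (6.87, adjusted p = 0.0557).

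Counts of called genes moved more. By CD11b (2 genes) they were 0 with a slide, donor label or donor label and age block, 1 with the mean of probes, without the 2 dimmest arrays or with plain moderation, 5 with array weights and 14 over every probe, and 1 to 4 without 1 array. Array weights gave 4 between the single positives, 40 in double-low cells over CD27 single positives, 1 in CD11b single positives over double-low cells, 3738 in double positives over double-low cells, 4114 by CD27, 1569 in the F test and 5711 against B cells. Every probe gave 1 in double positives over CD27 single positives, 12 in the F test and 1824 against B cells. Against B cells (362) the count was 600 with a slide block, 65 with donor label, 84 with donor label and age, 2020 within the second slide and 56 to 715 without 1 array. Without 1 array the other counts, all 0, ran from 0 to 1 between the single positives, in double positives over CD27 single positives, by CD27 and in the F test, and from 0 to 4 in double positives over double-low cells.

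Same-numbered NK arrays deviated together more than others (median r 0.222 over 25 pairs, against -0.0666 over 96 pairs of other numbers), and 12 of 18 correlated best with an array of their own number, a hint of pairing from the data and not from the design. The r within numbers ran from -0.297 to 0.413, with all 6 pairs of number 2 between 0.261 and 0.353, and not every pair was over 0.1, so the fit has no block. Number 4 (-0.297 to 0.226) joins subsets of a female of 18 years with subsets of a male of 5 years. Its pairs thus do not all stand for 1 animal. Numbers 1 and 3 also held pairs under 0.1 (lowest 0.0158 and -0.08), and the 1 pair of number 5 had an r of -0.213. The replicate block therefore joins different animals at number 4. It also joins the B cell arrays, from Singapore females, with NK arrays of males from Cambodia and Vietnam. With the replicate block GZMH was 2.48 by CD11b (adjusted p = 0.144) and 3.78 in double positives over double-low cells (adjusted p = 0.0833), with 1 gene called by CD11b and 421 against B cells. PRF1 lost its call by CD11b (1.81, adjusted p = 0.144), and no call on a granzyme changed.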
